A study of Mus musculus with 9 samples.

Results

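The suppressors of cytokine signalling (SOCS) were followed in RiboSeq of mouse macrophages, in which ribosome-protected fragments (footprints) are counted per gene. The family was defined by name as Socs1, Socs2, Socs3, Socs4, Socs5, Socs6, Socs7 and Cish, and all 8 were found among the 16921 gene identifiers of the table by library. The macrophages were immortalized bone marrow-derived macrophages (BMDMs) from TTP-deficient mice. Bone marrow cells had been grown for 10 days in M-CSF at 10 ng/ml and immortalized with hcmyc and hRas G12V, and cells positive for CD11b and F4/80 then received a tetracycline-inducible vector. The vectors encoded GFP, GFP–TTP or GFP–TTP-AA, in which the serines of TTP that the kinase MK2 phosphorylates are replaced by alanine (S52A, S178A). All 3 groups therefore came from TTP-deficient mice and carried the same oncogenes, and each group was a separately transduced line. Every group received doxycycline (1 µg/ml) for 6 h and lipopolysaccharide (LPS, 1 µg/ml) for 1 h, and each was sequenced as 3 libraries, numbered 1 to 3. No source used here says that these came from separate cultures.

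SOCS proteins are feedback inhibitors of cytokine receptors. A cytokine activates Janus kinases (JAKs) at its receptor, these phosphorylate the STAT transcription factors, and the STATs induce SOCS genes whose products bind phosphorylated receptors or the JAKs themselves and limit the signal. A central SH2 domain recognises phosphotyrosine, and the C-terminal SOCS box joins the protein to elongins and a cullin ubiquitin ligase. In macrophages SOCS3 is known for restraining signals through gp130, the shared chain of the interleukin-6 receptor family, and SOCS1 for restraining interferon signals, and both are induced by LPS. TTP binds AU-rich elements in the 3′UTRs of mRNAs and promotes their decay, and phosphorylation by MK2 weakens this activity. The comparisons ask how footprints on the family differ between macrophages with GFP–TTP, with the form that MK2 cannot phosphorylate, and with GFP alone.

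The values used are footprints as the deposited model fitted them. Each equals the size factor of the library times a mean fitted from a condition term and a term for library date, for which the replicate number stands, so that the spread between replicates is not in them. Within a condition the values of a gene differ only by the date term, which is the same in every condition, and non-overlapping libraries are therefore no sign of stability. The error of a fold change is the standard error (SE) of the deposited comparison, and its p-value is the Wald p of that DESeq2 fit, adjusted here by the Benjamini-Hochberg method over all genes whose mean fitted value reached 10. The threshold was an adjusted p of 0.05. Fold changes are shrunken towards 0 by the model. A level is the geometric mean over the 3 libraries of a condition after division by the size factors, and is given per kb of coding length where genes are compared with each other. Size factors, a measure of relative depth, ranged from 0.415 to 2.14, and the deepest and the shallowest library both belonged to the GFP–TTP-AA group. Zfp36, the gene of TTP, on which footprints of the constructs are also counted, had levels of 458 with GFP, 924 with GFP–TTP and 1531 for GFP–TTP-AA, and the difference between the TTP forms was past the threshold (adjusted p = 0.0385). The level of 458 was thus measured in TTP-deficient macrophages without a TTP construct, and where in the gene these footprints lie was not examined. All 6 macrophage markers listed were measured (Cd68, Itgam, Emr1, Csf1r, Lyz2 and Fcgr1), whereas the summed level of the T cell, B cell or fibroblast markers was at most 1.07 in any condition. These low sums rest on the markers with values, 1 of 4 for T cells, 2 of 3 for B cells and 2 of 3 for fibroblasts. The dendritic cell markers, most of them Itgax, summed to 11.2 with GFP, 14.7 with GFP–TTP and 12.1 for GFP–TTP-AA. In such bulk samples a lower number of cells of a type and less RNA per cell cannot be told apart, and mRNA amount and translation were not separated here.

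Socs3 was the family member with by far the most footprints in these macrophages. Per kb of coding length its level was 777 with GFP, 608 with GFP–TTP and 878 for GFP–TTP-AA, and exceeded that of 85.4%, 81.9% and 86.5% of the 9965 kept genes for which a coding length and a 3′UTR were found. The median gene lay at 145, 143.8 and 146 in the same order. All other members lay under this median. Socs6 had 53.3, 45.2 and 60.2, and Socs4 had 54.0, 64.3 and 54.0 per kb. Socs5 followed with 31.4, 26.1 and 26.1. Cish had 20.4, 21.3 and 30.4 per kb, Socs1 12.7, 13.7 and 18.4, and Socs7 12.3, 13.2 and 13.7. Socs2 was lowest with 2.25, 2.11 and 2.21. No error can be given for an order between genes, and the values of Socs4 and Socs6, and those of Socs5 and Cish, changed places between conditions. Socs2 alone was under the minimum fitted mean of 10, with 1.53, and Socs1 passed it narrowly with 11.2. The levels of Socs1 were 8.08 with GFP, 8.68 with GFP–TTP and 11.7 for GFP–TTP-AA, so that it passed through the group in which it was highest. Its tests, and its part in the counts and medians below, depend on that group and are no separate support for a rise there. The next fitted means within the family were 20.6 for Cish and 26.3 for Socs7.

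**Figure D1:**
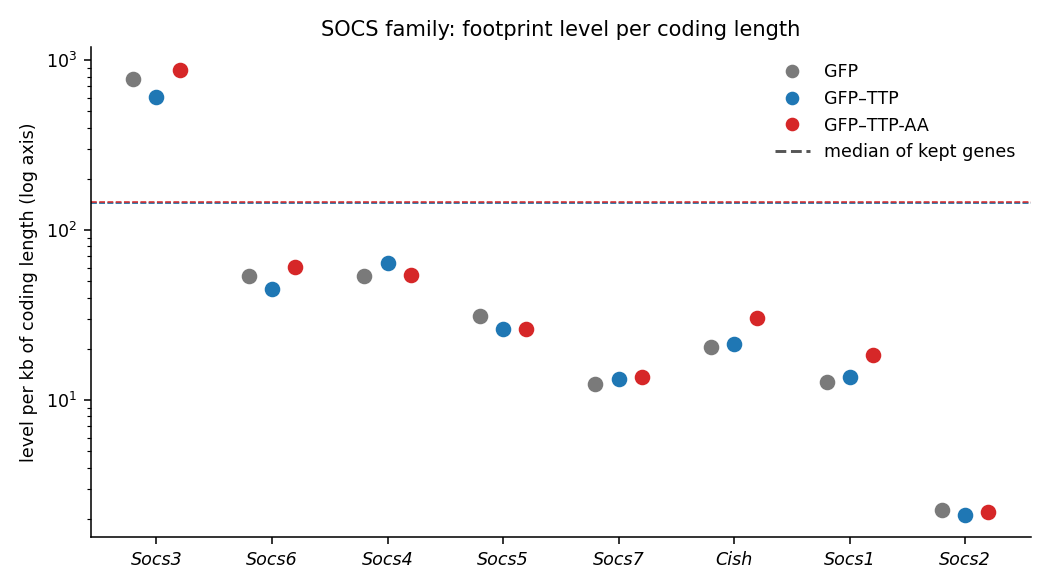
Footprint level per kb of coding length (log axis) for the 8 family members in order of fitted mean, with 1 point per condition and dashed lines at the median of the kept genes. Socs3 lies above the median line in all 3 conditions, at 608 to 878, and the other members lie below it.

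Of the 8 members, 6 could be tested in GFP–TTP against GFP and 7 in each comparison with GFP–TTP-AA. Socs2 has no SE in any comparison. Socs1 has none in GFP–TTP against GFP, where the lowest mean normalized count tested was 12.9 and that of Socs1 was 10.3. In GFP–TTP against GFP, 0 members were higher past the threshold (0.805% of all 9939 genes tested) and 0 were lower (1.29%). At an unadjusted p under 0.05 there was 1 member (11.3% of all genes). In GFP–TTP-AA against GFP, 0 members were higher (1.77% of 10202 genes) and 0 were lower (1.25%), with 2 at an unadjusted p under 0.05 (14.3%). In GFP–TTP-AA against GFP–TTP, 1 member, Socs3, was higher (5.7% of 10202 genes) and 0 were lower (4.55%), with 3 at an unadjusted p under 0.05 (22.1%). The members at an unadjusted p under 0.05 in both comparisons with GFP–TTP-AA include Socs1, which passed the filter through its GFP–TTP-AA values.

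Signs were mixed in GFP–TTP against GFP, with 3 members above 0 and 3 below, and a median log2 fold change of -0.09 beside 0.00 for all kept genes. Between GFP–TTP-AA and GFP 6 of 7 tested members were above 0, with a median of 0.18 beside 0.01. Between the TTP forms 6 of 7 were above 0 as well, with a median of 0.41 beside 0.01. These counts include Socs4 against GFP (0.002) and Socs5 between the TTP forms (0.003), whose signs turned with centring on the median. The SD over all kept genes was 0.26, 0.27 and 0.35 in the 3 comparisons. The comparisons share libraries and are not independent of each other, and the values that follow are given side by side for that reason.

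**Figure D2:**
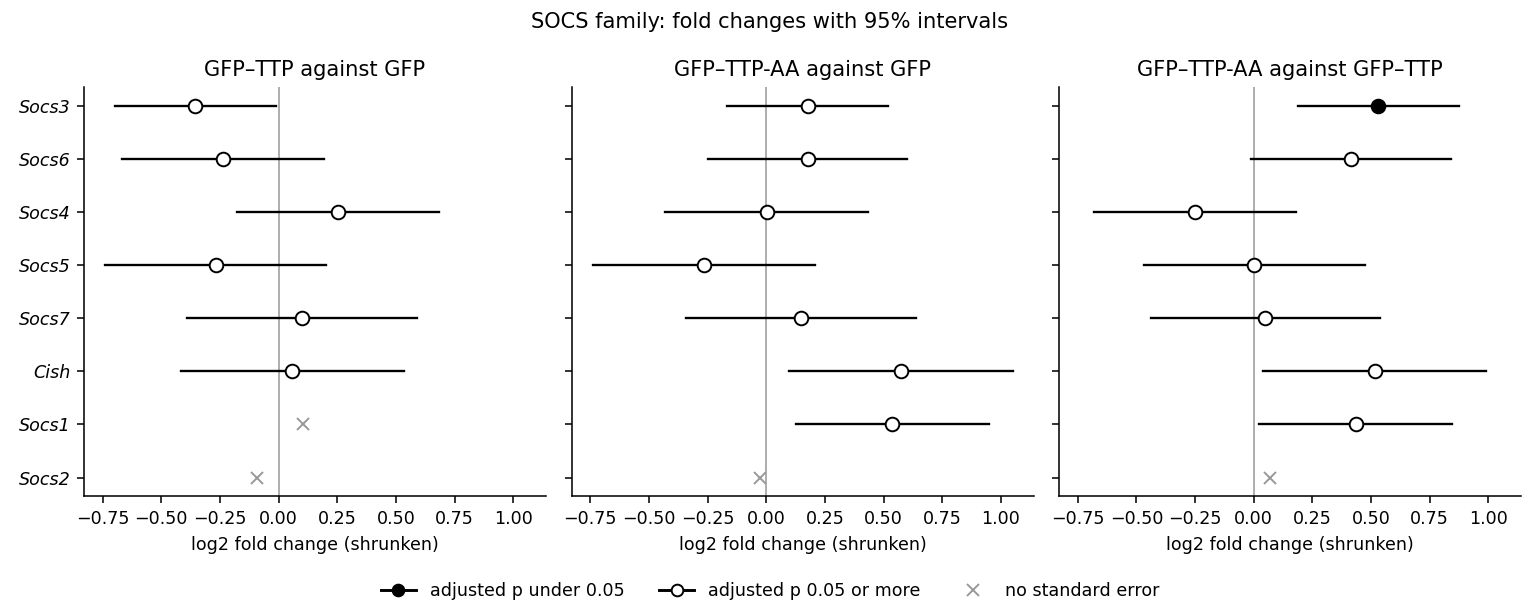
Log2 fold change of each SOCS family gene (points) with its 95% interval (lines) in the 3 comparisons, from the deposited standard errors. The filled point marks Socs3 in GFP–TTP-AA against GFP–TTP (0.53, interval 0.19 to 0.87), the single member past the threshold, and crosses mark genes without a standard error.

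Socs3 encodes the inhibitor that binds gp130 and blocks the attached JAKs. Its locus in GRCm38 spans bases 117966079 to 117970047 of chromosome 11 (minus strand) and overlaps no other annotated gene. Its coding sequence of 675 bases is followed by a 3′UTR of 1474 bases that holds 4 copies of the pentamer ATTTA, the core of AU-rich elements. Among 1437 kept genes whose 3′UTR has 80% to 120% of this length, 30.7% hold at least 4. A run of 2 overlapping TATTTAT heptamers begins at base 1397 after the stop codon, 78 bases from the annotated end of the transcript, and 9.88% of the same 3′UTRs hold at least 2. The run is shown because Socs3 is the member with a difference past the threshold, in sense orientation and DNA letters, with the heptamers in capitals (chr11:117966135-117966164).
Socs3: tgcacataTATTTATATTTATactcagaaa

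In GFP macrophages the Socs3 values after division by the size factors were 569.6, 553 and 459 for libraries 1, 2 and 3. In GFP–TTP macrophages they were 445, 432 and 359. In GFP–TTP-AA macrophages they were 644, 625 and 518. The GFP–TTP libraries were the lowest, without overlap with either other group, whereas GFP and GFP–TTP-AA overlapped. In fitted values such overlap is set by the fold changes and date terms, and is no separate observation. Library 3 was the lowest of each condition, with a date term of -0.19 on the log2 scale. The levels were 525, 410.2 and 593.

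With GFP–TTP-AA the level of Socs3 was 1.45-fold that with GFP–TTP (95% interval 1.14 to 1.83, log2 fold change 0.53, SE 0.17). The difference was past the threshold by the DESeq2 Wald test (adjusted p = 0.0285, Benjamini-Hochberg). Against GFP the log2 fold change was -0.36 with GFP–TTP (SE 0.17, interval -0.70 to -0.01, adjusted p = 0.411) and 0.18 with GFP–TTP-AA (SE 0.17, interval -0.17 to 0.52, adjusted p = 0.744). Neither of these 2 was past the threshold. The order of levels was GFP–TTP, GFP, GFP–TTP-AA, in which GFP did not differ past the threshold from the group on either side. The summed level of the macrophage markers, most of it Lyz2, was 63417.5 with GFP–TTP, 83903 with GFP and 94326 for GFP–TTP-AA. Of the 6 markers, 4 had this order (Cd68, Emr1, Csf1r and Lyz2), among which Emr1, which encodes F4/80, had 2282, 3652 and 5327. The others did not, as Itgam had 3177, 2958 and 3181 and Fcgr1 had 66.9, 129 and 110.1 for GFP–TTP, GFP and GFP–TTP-AA. The summed level of the neutrophil markers, almost all of it S100a8, was 25.6, 27.1 and 55.8 in that order, and the part of these markers in the Socs3 values was not tested.

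**Figure D3:**
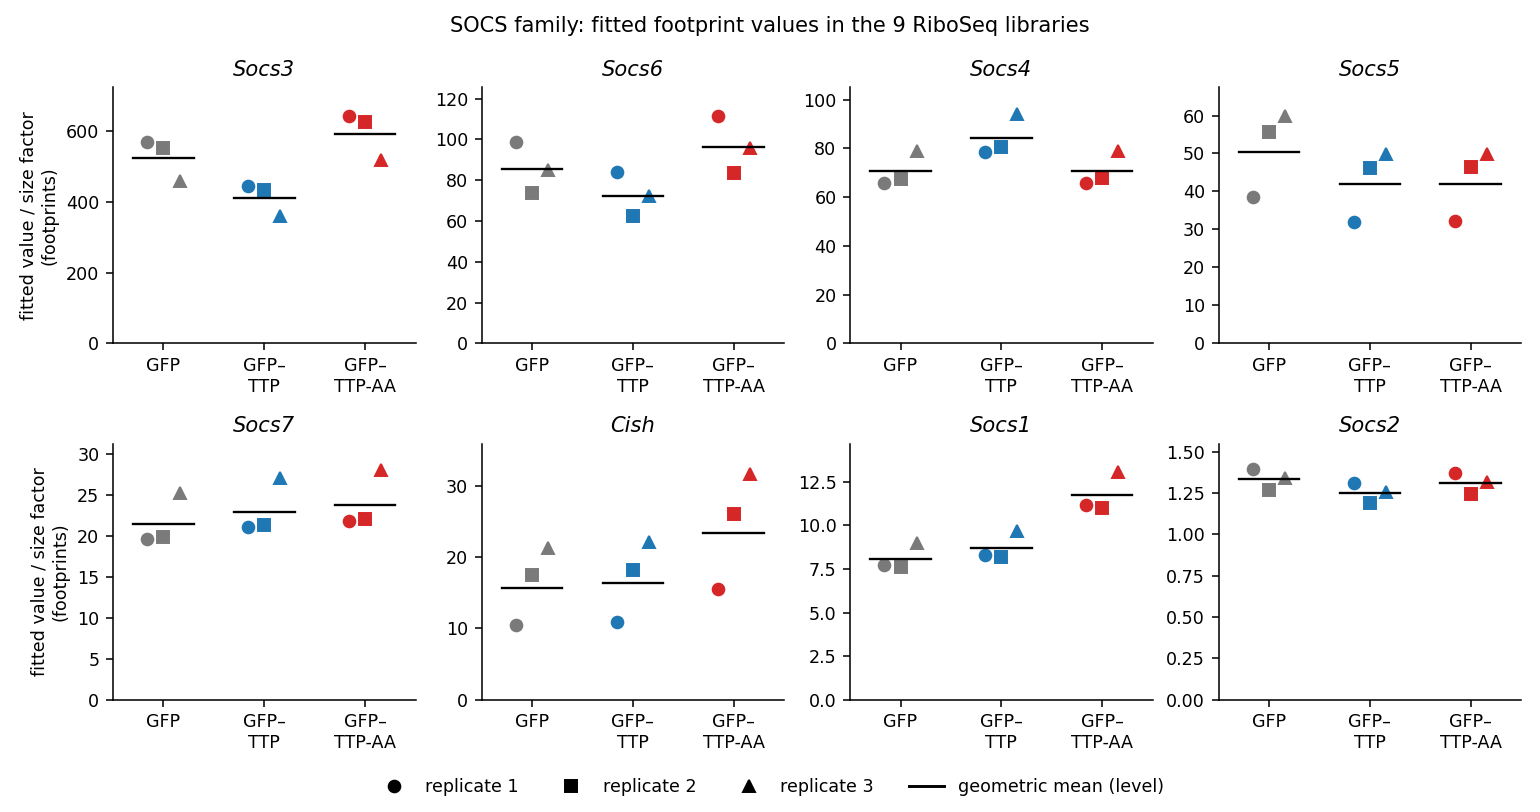
Fitted footprint values divided by the size factor of the library (linear axes from 0) for the 8 SOCS family genes, with 1 point per library, symbols for the replicate number and a line at the geometric mean of each condition. Socs3 libraries with GFP–TTP lie at 359 to 445, under all GFP (459 to 569.6) and GFP–TTP-AA libraries (518 to 644), and the offset between replicates repeats in every condition because it is the date term.

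Socs1 encodes the inhibitor that blocks JAKs of the interferon and interleukin receptors directly. Its locus spans bases 10782240 to 10785536 of chromosome 16 (minus strand). Unlike Socs3, its 3′UTR of 1993 bases holds 0 copies of ATTTA, although 91.4% of 1395 3′UTRs of similar length hold at least 1. The values were 7.71, 7.60 and 9.02 for libraries 1, 2 and 3 with GFP. They were 8.28, 8.16 and 9.69 with GFP–TTP, and 11.2, 11.0 and 13.1 for GFP–TTP-AA. The GFP–TTP-AA libraries were the highest and did not overlap with the others, which overlapped with each other. For fitted values this overlap or lack of it follows from the fold changes and date terms alone. The log2 fold change was 0.54 for GFP–TTP-AA against GFP (SE 0.21, interval 0.13 to 0.95, unadjusted p = 0.0105, adjusted p = 0.151 by the DESeq2 Wald test). It was 0.43 for GFP–TTP-AA against GFP–TTP (SE 0.21, interval 0.02 to 0.85, unadjusted p = 0.0391, adjusted p = 0.195). Neither was past the threshold. With a pseudocount of 10 the same differences were 0.26 and 0.22. Between GFP–TTP and GFP the log2 difference of the levels was 0.10, without an error.

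Cish encodes CIS, the founding member of the family, which is induced by and limits STAT5 signals. Its locus spans bases 107296026 to 107302784 of chromosome 9 (plus strand), where 2 annotated genes on the opposite strand overlap it. Whether footprints were counted by strand is not given in the sources used here. Its 3′UTR of 1087 bases has the most TATTTAT heptamers of the family, 3 that overlap in a single run, among which the nonamer TTATTTATT occurs 2 times. Of 1388 3′UTRs of similar length, 1.87% hold at least 3 of the heptamer and 1.08% at least 2 of the nonamer. The run starts at base 484 after the stop codon and is shown beside the single heptamers of Socs4 and Socs5, in sense orientation with the heptamers in capitals (Cish chr9:107301377-107301406, Socs4 chr14:47293527-47293556, Socs5 chr17:87136091-87136120).
Cish: tatacagTATTTATTTATTTATtctccttg
Socs4: gtaaaactaagTATTTATatgaaagtcaaa
Socs5: ttggatgacagTATTTATctctttgttgta
Over all 9965 kept genes with a 3′UTR, 68.3% hold ATTTA, 28.7% TATTTAT and 7.45% TTATTTATT at least once, counted on the transcribed strand, and every heptamer or nonamer also holds the pentamer. These matches are letters in the annotated 3′UTR. Binding of TTP was not examined.

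The Cish values were 10.5, 17.6 and 21.3 for libraries 1, 2 and 3 with GFP. They were 10.9, 18.3 and 22.1 with GFP–TTP and 15.6, 26.1 and 31.6 for GFP–TTP-AA. Library 1 was the lowest of each condition, and all 3 conditions overlapped. The date terms of Cish were -0.59, 0.16 and 0.43 on the log2 scale, the widest of the family, beside an SD over all kept genes of 0.15, 0.17 and 0.18 for the same libraries. With GFP–TTP-AA the level was 1.49-fold that with GFP (interval 1.07 to 2.07, log2 fold change 0.57, SE 0.24), which did not pass the threshold (unadjusted p = 0.0183, adjusted p = 0.207, DESeq2 Wald test). Against GFP–TTP it was 1.43-fold (interval 1.03 to 1.99, unadjusted p = 0.0343, adjusted p = 0.179). GFP–TTP and GFP lay close together, at 0.06 on the log2 scale (interval -0.42 to 0.53).

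Socs2, the member best known for limiting growth hormone signals, had values between 1.19 and 1.40 in all 9 libraries. Its levels were 1.33 with GFP, 1.25 with GFP–TTP and 1.31 for GFP–TTP-AA. As fitted values with shrunken differences, at a fitted mean of 1.53, their closeness is no sign that Socs2 footprints were constant. The differences between conditions have no error and were not tested. Its 3′UTR of 1163 bases holds 1 TATTTAT, which 28.7% of 1404 3′UTRs of similar length hold at least once.

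Socs6 and Socs7 encode members with a long N-terminal region that have been linked to insulin receptor and receptor tyrosine kinase signals. Socs6 values were 98.8, 73.8 and 85.0 with GFP for libraries 1, 2 and 3. They were 83.8, 62.5 and 72.0 with GFP–TTP and 112, 83.3 and 96.0 for GFP–TTP-AA. Library 2 was the lowest of each condition, and the 3 conditions overlapped. The order of levels was that of Socs3, with 72.3 for GFP–TTP, 85.2 for GFP and 96.3 for GFP–TTP-AA. The log2 fold change of GFP–TTP-AA against GFP–TTP was 0.41 (SE 0.22, interval -0.01 to 0.84, adjusted p = 0.247), so that neighbours in this order did not differ past the threshold, nor did its ends. The Socs6 gene overlaps 3 annotated processed pseudogenes, 2 of them on the same strand. Its 3′UTR of 4019 bases holds 10 ATTTA and 0 TATTTAT. Socs7 had a level of 21.4 with GFP, 22.96 with GFP–TTP and 23.8 for GFP–TTP-AA. Its fold changes were between 0.05 and 0.15 on the log2 scale, each with an SE of 0.25, which to this rounding is also the largest SE of any gene in the 3 comparisons. By an estimate from this SE, which has a lower and an upper solution, the model kept about 47% or 53% of these changes, so they are smaller than unshrunken ones would be. Between the TTP forms the solutions lay further apart for Socs3 (14.2% or 85.8%), Socs1 (22.8% or 77.2%) and Cish (38.1% or 61.9%). How far the changes of these members were shrunken was therefore not determined. The Socs7 3′UTR of 5184 bases holds 5 ATTTA, and 83.2% of 463 3′UTRs of similar length hold at least as many.

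Socs4 and Socs5 encode paired members known for limiting epidermal growth factor receptor signals. Socs4 was the single tested member whose level was highest with GFP–TTP. Its values were 65.8, 67.7 and 78.9 with GFP and 65.9, 67.8 and 79.1 with GFP–TTP-AA, which were nearly the same, whereas they were 78.5, 80.7 and 94.1 with GFP–TTP. Libraries of all 3 conditions overlapped. The log2 fold change was 0.25 for GFP–TTP against GFP (SE 0.22, interval -0.18 to 0.68, adjusted p = 0.741) and -0.25 for GFP–TTP-AA against GFP–TTP (SE 0.22, interval -0.68 to 0.18, adjusted p = 0.546), neither past the threshold. The 3′UTR of Socs4, with 5182 bases, holds 17 ATTTA, and 9.03% of 465 3′UTRs of similar length hold at least 17.

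Socs5 was highest with GFP. Its values were 38.6, 55.7 and 59.9 with GFP, 32.0, 46.2 and 49.8 with GFP–TTP, and 32.1, 46.3 and 49.8 for GFP–TTP-AA. The 3 conditions overlapped, with library 1 the lowest of each. The log2 fold change against GFP was -0.27 for GFP–TTP (interval -0.74 to 0.20, adjusted p = 0.753) and -0.27 for GFP–TTP-AA (interval -0.74 to 0.21, adjusted p = 0.704). The TTP forms had levels of 41.9 and 42.0, and the interval of their log2 difference, -0.47 to 0.48, leaves room for changes in either direction.

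By point estimates the members thus had different orders of conditions, and no difference in order between members was tested. The point estimates of Socs1, Cish and Socs7 were lowest with GFP and highest with GFP–TTP-AA, Socs3 and Socs6 were lowest with GFP–TTP and highest with GFP–TTP-AA, and Socs4 and Socs5 did neither. Of all these differences, that of Socs3 between the TTP forms was past the threshold. The copy number of ATTTA in the 3′UTR, from 0 in Socs1 to 17 in Socs4, is given as a description of each gene.

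**Figure D4:**
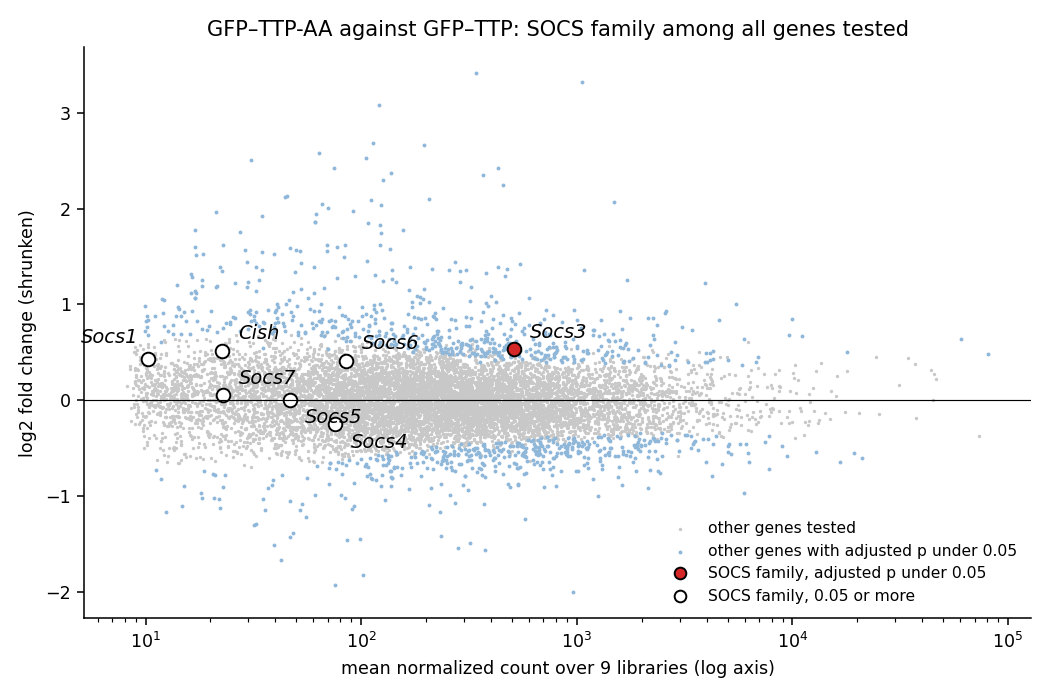
Log2 fold change of GFP–TTP-AA against GFP–TTP for all genes tested, against the mean normalized count over the 9 libraries (log axis), with the 7 tested SOCS family genes as large circles. Socs3 (filled) lies at 0.53 among genes past the threshold, and Cish (0.51) and Socs1 (0.43), with fewer footprints, lie among genes that are not.

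The genes whose pattern over the 9 libraries was most like that of the 2 members with the highest fitted mean were found by the root-mean-square difference of centred log2 values, over 8637 genes whose mean fitted value reached 50. For Socs3 these were AI413582 (difference 0.05), Zbtb20 (0.05) and Triap1 (0.05), beside a median of 0.33 over all these genes. Their log2 fold changes between GFP–TTP-AA and GFP–TTP were 0.45, 0.61 and 0.54, near that of Socs3 because of how these genes were chosen. For Socs6 they were 1110002L01Rik (0.03), Abhd14b (0.04) and 1810011H11Rik (0.04), beside a median of 0.30. As the values are fitted, this likeness holds for the condition and date terms alone.

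Other genes of the cytokine pathway were taken from 6 lists, of which 91 of 102 genes were found and 69 passed the filter. In GFP–TTP against GFP 0 of 68 tested were higher past the threshold and 1 was lower. Against GFP, GFP–TTP-AA had 3 of 69 genes higher and 1 lower. Between the TTP forms 14 of 69 were higher and 2 were lower, beside the 5.7% and 4.55% of all genes given above.

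Cytokine receptors had the most genes past the threshold between the TTP forms, with 7 of 15 tested higher and 0 lower, and a median log2 fold change of 0.48. Il10ra, the ligand-binding chain of the interleukin-10 receptor, rose by 1.23 (SE 0.23, adjusted p = 4.9e-06). It was also the single gene of the lists past the threshold in GFP–TTP against GFP, where it was lower at -0.85 (adjusted p = 0.0152), with levels of 145 for GFP, 80.7 for GFP–TTP and 189.5 for GFP–TTP-AA. Il7r, the interleukin-7 receptor chain, rose by 1.19 between the TTP forms (adjusted p = 9.3e-07). The type I interferon receptor chains Ifnar1 and Ifnar2 rose by 0.73 and 0.48 (adjusted p = 0.00026 and 0.0226). Il10rb, the second chain of the interleukin-10 receptor, rose by 0.67 (adjusted p = 0.00425) and Il2rg, the common gamma chain, by 0.59 (adjusted p = 0.0123). Relative to GFP alone, Ifnar1 and Il2rg were also higher in GFP–TTP-AA macrophages, at 0.56 and 0.60 (adjusted p = 0.0207 and 0.0258). The fold changes of the receptors past the threshold thus covered the size of that of Socs3, 0.53, and went beyond it. Between the TTP forms 12 of the 15 receptors were above 0 and 3 were below, none of these past the threshold by the DESeq2 Wald test. They were Il13ra1 (-0.65, adjusted p = 0.0502), Il6st, which encodes gp130 (-0.35, adjusted p = 0.271), and Csf2ra (-0.14, adjusted p = 0.739).

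Among 20 kinases, STATs and other inhibitors, 3 were higher and 1 was lower between the TTP forms, with a median of 0.08. Jak2 rose by 0.68 (adjusted p = 0.0332), Stat6, which carries interleukin-4 signals, by 0.45 (adjusted p = 0.0255), and Ptpn6, which encodes the phosphatase SHP-1, by 0.41 (adjusted p = 0.035). Ptprc, the phosphatase CD45, fell by 0.44 on the log2 scale (adjusted p = 0.0215). In the other comparisons 0 of the 20 were past the threshold by this DESeq2 Wald test, with 3 at an unadjusted p under 0.05 in GFP–TTP against GFP and 1 in GFP–TTP-AA against GFP.

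Of 7 cytokines that passed the filter, Ebi3, a subunit of interleukin-27, was higher between the TTP forms (0.62, adjusted p = 0.039). Osm, which encodes oncostatin M, a ligand of receptors with gp130, was lower (-0.70, adjusted p = 0.0223). Osm was also lower in GFP–TTP-AA than in GFP macrophages (-1.22, adjusted p = 1.2e-05), with levels of 226 for GFP, 157.5 for GFP–TTP and 96.8 for GFP–TTP-AA. Its order of levels was thus unlike that of Socs3.

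Of 10 other genes known to be driven by STATs, 3 were higher and 0 lower between the TTP forms, with a median of 0.22. They were the guanylate-binding protein gene Gbp2 (1.49, adjusted p = 5.8e-08), Irf9, which encodes an interferon regulatory factor (1.16, adjusted p = 0.000145), and the IκB family gene Bcl3 (0.75, adjusted p = 0.0249). Relative to GFP alone, Gbp2 was higher in GFP–TTP-AA macrophages too (1.07, adjusted p = 0.00095). The other 7 were not past the threshold in any comparison.

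The proteins that the SOCS box works with did not change past the threshold. Of 6 ligase partners 0 were past it in any comparison, and the median between the TTP forms was -0.08. The 2 with the highest fitted means were Tceb2 (elongin B), at 0.29 (adjusted p = 0.147), and Rbx1, a RING subunit of cullin ligases, at -0.09 (adjusted p = 0.534). Of 11 other tested SOCS box proteins 0 were past the threshold, with a median of 0.09, and the 2 with the highest fitted means were Wsb1 at -0.14 (adjusted p = 0.651) and Asb8 at 0.25 (adjusted p = 0.401). At an unadjusted p under 0.05 of the DESeq2 Wald test there was 1 ligase partner in each comparison with GFP–TTP, and 0 of the other SOCS box proteins in any comparison.

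**Figure D5:**
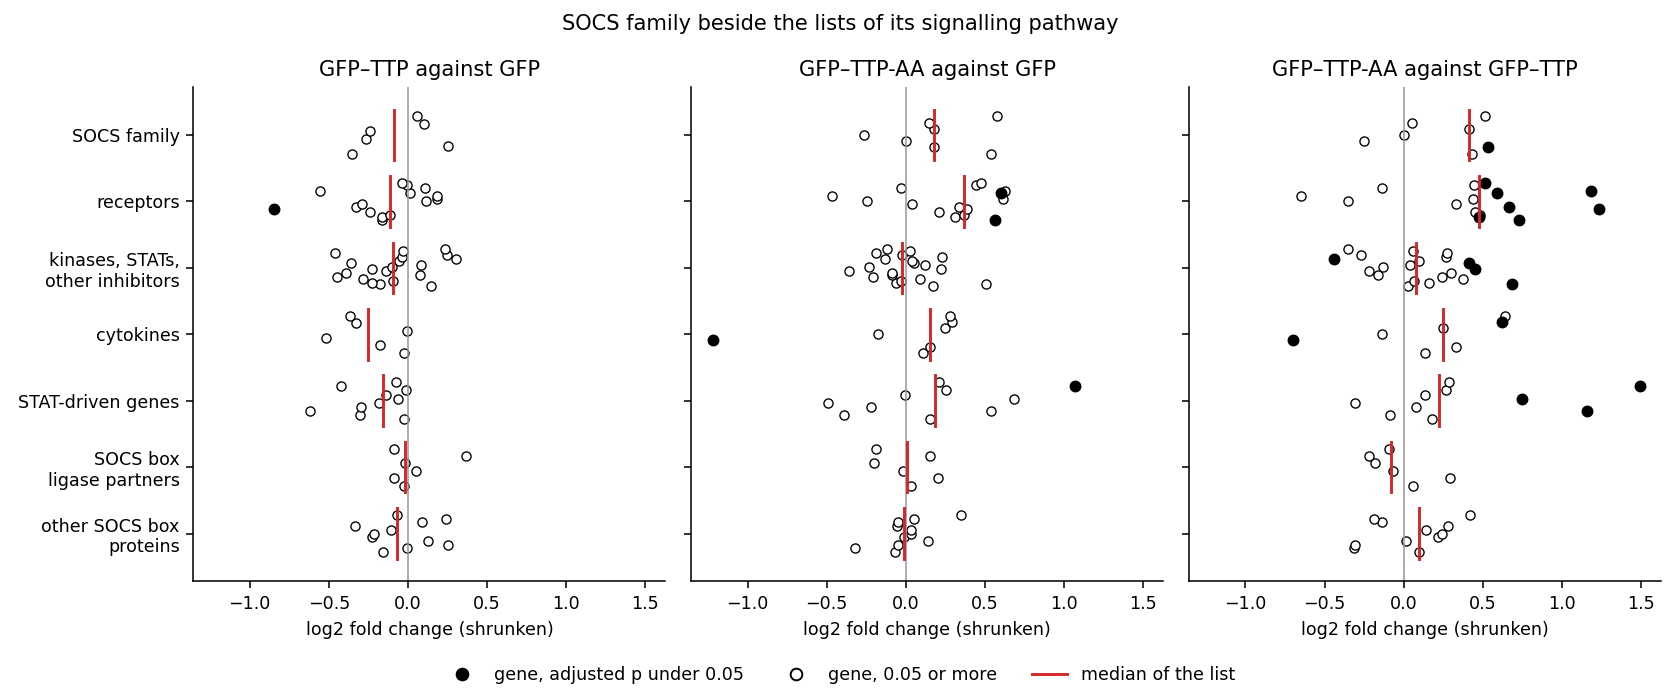
Log2 fold changes of the tested SOCS family genes and of the 6 pathway lists in the 3 comparisons, with 1 point per gene, filled where the adjusted p was under 0.05, and a red line at the median of each list. In GFP–TTP-AA against GFP–TTP 7 of 15 receptors, 3 of 10 STAT-driven genes and 1 SOCS gene are filled on the higher side, and 0 genes of the ligase partners and the other SOCS box proteins are filled.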

How the data were processed

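Footprints of 9 RiboSeq libraries were analysed, 3 per condition as named in the sample labels. Per the methods and labels, the authors prepared libraries with the ARTseq kit, aligned reads to mm10 (GRCm38) with TopHat (TopHat2 2.0.12 in the submitters' processing notes, which also name Trim Galore, HTSeq and DESeq2 1.6.3) with up to 2 alignments per read, and fitted DESeq2 with terms for library date and condition. The deposited table of normalized counts is a signal, the fitted value of that model per gene and library. After condition and replicate terms its log2 values had a residual SD of 2.52e-15, and it held 0 zeros. The deposited comparison tables give a log2 fold change with SE, a mean normalized count and a Wald p-value per gene, all computed by the authors. These were used because the fitted values hold no replicate spread.

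Here size factors (0.415 to 2.14) were estimated from the fitted values, levels were formed without a pseudocount, 10202 genes whose mean fitted value reached 10 were kept, and the p-values were adjusted over them (Benjamini-Hochberg, Python 3.11.15, pandas 2.3.3, scipy 1.17.1). Intervals are the fold change plus or minus 1.96 SE. The adjustment was tested on simulated data. Read totals are not in the files. The SE belongs to the shrunken fold change and does not simply rise as counts fall. In GFP–TTP-AA against GFP it was 0.17 for the receptor gene Lifr (fitted mean 5.37) and also for Socs3 (602). Intervals of members with few footprints, such as Socs1 and Cish, may therefore look more precise than their counts allow. 3′UTRs and coding lengths came from GENCODE vM21 (GRCm38), with the APPRIS principal transcript that has the longest 3′UTR, and printed sites equal GRCm38.p6. Named genes were the 8 members, up to 6 genes per pathway list past the threshold in order of adjusted p or else the 2 with the highest fitted mean, the 3 nearest patterns and Zfp36. The receptors below 0 between the TTP forms were named as well. The members and lists were chosen with earlier results of these data known. Alternatives covered the filter, the set adjusted together, centring, the chromosome median, the adjusted p of the deposited tables and pseudocounts.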

Additional observations from a re-analysis of the deposited data

How the results depend on the processing

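The counts of SOCS family, pathway and all genes past the threshold stayed within 1.5 times their reported values under every alternative run, in 63 of 63 cases. Of 183 values for single members, 176 kept their direction and side of the threshold or, where no test was made, moved by less than their SE (for values without one, by less than their own size). The other 7 were not past the threshold or had no test. They include Socs4 in GFP–TTP-AA against GFP and Socs5 between the TTP forms, both near 0, whose sign turned with centring on the median. Socs3 between GFP–TTP-AA and GFP–TTP stayed past the threshold in every alternative with a p, with a log2 fold change of 0.52 to 0.63 over all alternatives and an adjusted p of 0.0066 to 0.0482. A filter on the mean after division by the size factors, chosen after the data were seen, leaves Socs1 untested and changed no other call of a family member. Every test reported already carries the replicate number, through the library date, as a block. No paired analysis was possible because the values by library hold no residual spread, so that fits with and without the block could not be set side by side. For the same reason leaving out each replicate was not run. Within the family the SE ranged from 0.17 for Socs3 to 0.25 for Socs7, and reads per library are not known.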
